A study of Mus musculus with 4 samples.

Results

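Col23a1, Fbn1, Fbn2, Pcolce and Pcolce2 were followed through the cell types of the adult mouse hypothalamus and compared between wild-type and TRα1+m mice. They were 5 of the 32285 genes counted. Col23a1, Fbn2 and Pcolce2 were proposed because of their difference between the genotypes in oligodendrocytes, and Fbn1 and Pcolce because they are their closest relatives. The oligodendrocyte values therefore chose the genes and are given as a description without a test. The mice were adult males on the C57/BL6NCr background and were either wild type (WT) or heterozygous for the R384C mutation of thyroid hormone receptor α1 (TRα1+m), which lowers the affinity of the receptor for its hormone. The mutation is inherited and was not limited to a cell type. Nuclei of 3 mice were pooled into each library, and the experiment was performed in 2 repeats, which gave 2 libraries per genotype and 4 in all. The age within adulthood was not given in the sources used here.

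Col23a1 encodes the α chain of collagen XXIII, a collagen that spans the cell membrane and carries its triple-helical part outside the cell. Fbn1 and Fbn2 encode fibrillin-1 and fibrillin-2, large glycoproteins that assemble into the microfibrils of connective tissue and bind the latent forms of growth factors of the TGFβ family. Pcolce and Pcolce2 encode the procollagen C-proteinase enhancers, secreted proteins that speed up the removal of the C-terminal propeptide from fibrillar procollagens by proteinases of the BMP1 family. Oligodendrocytes are the myelinating glia of the central nervous system, and thyroid hormone is a known regulator of their differentiation. The liganded receptor activates its target genes, and the receptor without hormone can repress them.

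Levels are given as unique molecular identifiers (UMIs, each standing for a counted RNA molecule) scaled to a total of 1000000 UMIs per cell type and library (CPM). Introns were counted, so long genes yielded more UMIs, and levels were not compared between genes. On the GRCm38 build, Col23a1 lies on the plus strand of chromosome 11, from 51289920 to 51583918, and 1.95% of this span is exonic. Fbn1 lies on the minus strand of chromosome 2, from 125300594 to 125507993. Pcolce2 lies on the plus strand of chromosome 9, from 95637601 to 95698096, and Pcolce on the minus strand of chromosome 5, from 137605103 to 137613784. No annotated gene overlapped Col23a1. The antisense gene Gm16126 overlaps Pcolce2 on the other strand. Fbxo24 overlaps Pcolce on the same strand, so reads of the part shared by Fbxo24 and Pcolce cannot be assigned with certainty.

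The bases upstream of the annotated starts of Col23a1 and Pcolce2 are shown because these genes had the largest differences between the genotypes in oligodendrocytes, in opposite directions. They are from RefSeq, build GRCm38.p6, plus strand, in lower case, with the motif AGGTCA in capitals where it occurred. AGGTCA, in either orientation, is the core that thyroid hormone receptors and several other nuclear receptors bind. The Col23a1 sequence covers chr11:51289670-51289919 and the Pcolce2 sequence covers chr9:95637378-95637600.
Col23a1 upstream: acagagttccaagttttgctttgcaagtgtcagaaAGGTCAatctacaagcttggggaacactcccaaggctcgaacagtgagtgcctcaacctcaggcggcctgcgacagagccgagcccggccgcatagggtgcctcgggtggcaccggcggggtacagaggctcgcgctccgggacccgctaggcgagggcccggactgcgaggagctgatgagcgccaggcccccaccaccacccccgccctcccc
Pcolce2 upstream: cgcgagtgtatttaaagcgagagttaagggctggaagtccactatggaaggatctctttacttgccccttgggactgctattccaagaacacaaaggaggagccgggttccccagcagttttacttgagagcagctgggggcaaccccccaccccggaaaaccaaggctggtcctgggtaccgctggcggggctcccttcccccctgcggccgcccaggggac
The 250 bases before each RefSeq start were searched, of which those before the GENCODE start are printed. The Col23a1 window held 1 AGGTCA on the plus strand, at position -215 from the RefSeq start, and the Pcolce2 window held 0 on either strand. Of 32851 promoters searched in the same way, 14.02% held AGGTCA on either strand, so a match in a window of this size is common. A direct repeat of 2 AGGTCA motifs with 4 bases between them, searched on both strands, was found in 5 of the promoters (0.0152%) and in none of the 4 members of which a promoter was available. For Fbn1 and Pcolce the whole window searched lay within the GENCODE gene and not upstream of it. A match or its absence describes these letters only.

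The 4 libraries held 11976 to 16435 nuclei and 47260127 to 59112785 UMIs after the filters of the study. Of these nuclei, 6135 were oligodendrocytes, 1396 to 1685 per library, with a median of 1493 to 1812 UMIs each. Between 44 and 64 cell barcodes were shared by any pair of libraries. Neurons_2 was made up almost entirely of TRα1+m repeat 2 (852 of 864 nuclei), was set aside by the study and was not used for any result. The oligodendrocyte cluster expressed its defining markers, with 2253 ± 233 CPM of Mbp and 888 ± 284 CPM of Mog (SD, n = 4), against 209 and 8.99 CPM in Neurons_1, the main neuronal cluster. Between the repeats the summed level of 6 mature oligodendrocyte markers in this cluster was 10230 and 9245 CPM in repeat 1 (WT and TRα1+m) and 18967 and 22756 CPM in repeat 2.

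In oligodendrocytes, Col23a1 and Fbn2 were higher and Pcolce2 was lower in TRα1+m than in WT. Col23a1 was counted at 29 and 30 UMIs in the WT libraries and at 428 and 426 UMIs in the TRα1+m libraries. This corresponded to 11.2 and 11.1 CPM in WT against 158 and 169 CPM in TRα1+m. The WT libraries were low and alike, and the lowest TRα1+m library lay far above both. The means were 11.1 ± 0.0936 and 163 ± 7.44 CPM (SD, n = 2), a ratio of 14.7. The fitted log2 fold change was 3.94 (SE 0.193). The SE, here and below, is the absolute log2 fold change divided by the square root of the edgeR quasi-likelihood F statistic. In oligodendrocytes it is given as a description only.

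Fbn2 lies on the minus strand of chromosome 18, from 58008623 to 58210487, and 6.55% of this span is exonic. It gave 211 and 234 UMIs in WT and 715 and 634 UMIs in TRα1+m. Its levels were 81.4 and 86.2 CPM in WT and 264 and 251 CPM in TRα1+m. Fbn2 was thus already present in WT oligodendrocytes, and the genotypes did not overlap. The means were 83.8 ± 3.42 and 258 ± 9.31 CPM (SD, n = 2), a ratio of 3.07, with a log2 fold change of 1.69 (SE 0.164).

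Pcolce2 gave 217 and 360 UMIs in WT and 8 and 10 UMIs in TRα1+m. Its levels were 83.7 and 133 CPM in WT and 2.96 and 3.96 CPM in TRα1+m. The WT libraries differed from each other more than they did for the other genes, and both TRα1+m libraries were close to zero. The means were 108 ± 34.6 and 3.46 ± 0.710 CPM (SD, n = 2), WT being 31.3 times TRα1+m, with a log2 fold change of -4.88 (SE 0.348).

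**Figure D1:**
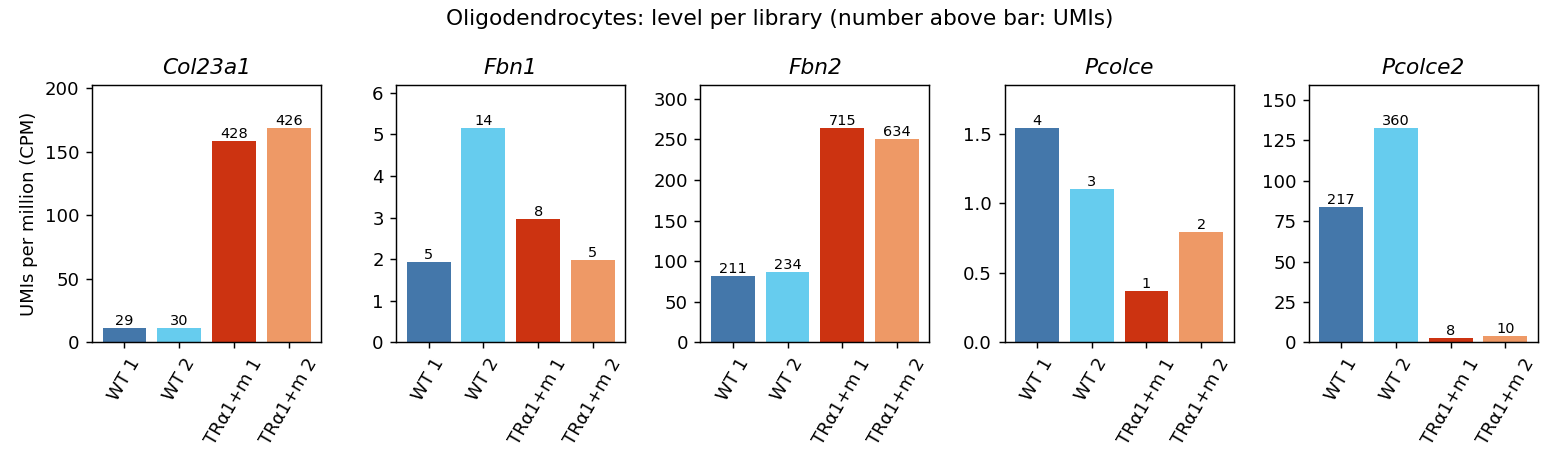
Level of each gene in oligodendrocytes, in CPM on a linear axis from 0 that differs between panels, with 1 bar per library and its UMI count above. Col23a1 and Fbn2 stand higher in both TRα1+m libraries (158 and 169, and 264 and 251 CPM) than in both WT libraries, Pcolce2 stands lower, and Fbn1 and Pcolce rest on 1 to 14 UMIs per library.

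The related genes Fbn1 and Pcolce were near the limit of detection in oligodendrocytes. Fbn1 was counted at 5 and 14 UMIs in WT and at 8 and 5 UMIs in TRα1+m, and the genotypes overlapped. Pcolce was counted at 4 and 3 UMIs in WT and at 1 and 2 UMIs in TRα1+m, and these counts do not allow a comparison. Neither passed the filter on low counts, so 3 of the 5 genes entered the fit in oligodendrocytes. In that fit 13 of 12630 genes (0.103%) had an adjusted p under 0.05 (edgeR quasi-likelihood test, Benjamini-Hochberg adjustment), and 4.35% had one with the repeat as a block. The genotypes did not overlap for 32.3% of the genes tested, and Col23a1, Fbn2 and Pcolce2 were among them. These shares are given as background only, since the genes were proposed from this contrast.

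The share of nuclei with at least 1 UMI comes from the same counts that chose the genes. It describes these counts in another form and is not separate support. Col23a1 was detected in 1.71% and 2.01% of WT oligodendrocyte nuclei and in 19.3% and 22.2% of TRα1+m nuclei. Fbn2 was detected in 9.32% and 12.3% of WT nuclei and in 26.9% and 29.1% of TRα1+m nuclei. Pcolce2 was detected in 11.6% and 21.0% of WT nuclei and in 0.475% and 0.637% of TRα1+m nuclei. The exact 95% binomial intervals drawn in the plot of these shares cover counting error only, since nuclei of a pool are not replicates.

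Because detection depends on depth, each nucleus was also thinned to 900 UMIs, the depth reached by every nucleus. Col23a1 was then detected in 0.792% and 1.22% of WT and 12.1% and 12.8% of TRα1+m oligodendrocytes. The WT shares lay in the range of other cell types at the same depth: 1.13% to 1.70% of Neurons_1 nuclei and 0.565% and 0.474% of WT OPC nuclei held a Col23a1 UMI. None of these cell types is known to lack the gene, free RNA was not measured, and the WT shares were not read as expression. Fbn2 was detected in 5.91% and 6.73% of thinned WT nuclei, and this lay above the 1.67% to 2.18% of Neurons_1 and the 0.161% to 0.411% of the astrocyte sub-cluster. Pcolce2 was detected in 0.178% and 0.283% of thinned TRα1+m oligodendrocytes, below the 2.21% to 2.75% of Neurons_1 and the 0.592% to 1.13% of the astrocyte sub-cluster. The whole nuclei had median depths of 1493 to 1812 UMIs in oligodendrocytes and 3797 to 5227 UMIs in Neurons_1.

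**Figure D2:**
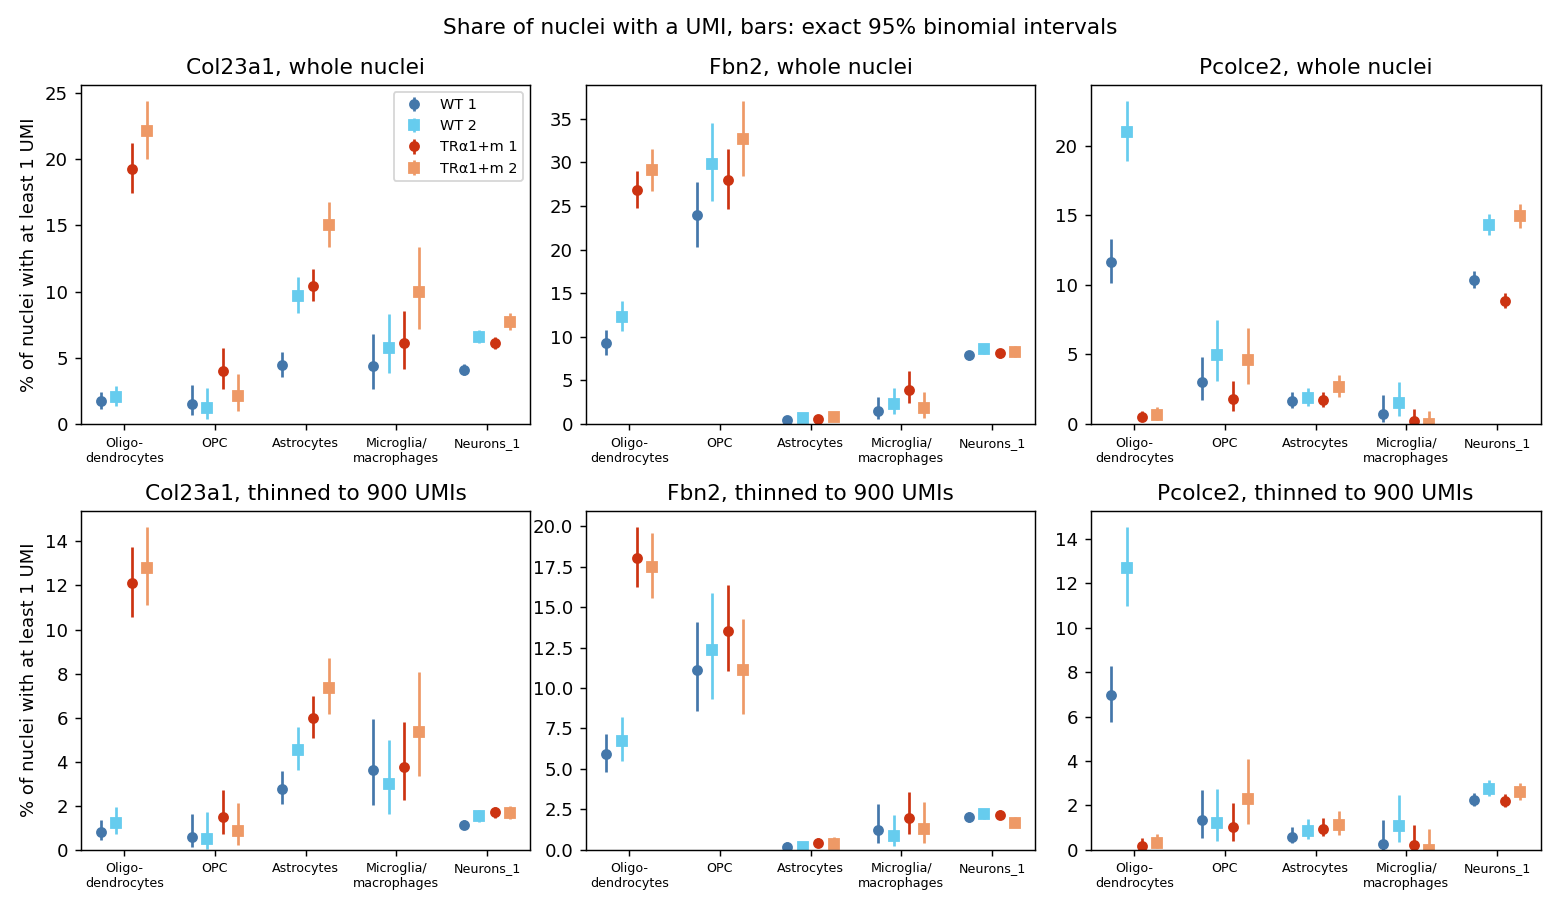
Percentage of nuclei with at least 1 UMI of Col23a1, Fbn2 and Pcolce2 in each library and cell type (astrocytes without tanycytes), for whole nuclei in the upper row and nuclei thinned to 900 UMIs in the lower row, with exact 95% binomial intervals as bars. The TRα1+m oligodendrocytes lie near 12% for thinned Col23a1 and near 18% for thinned Fbn2, above both WT libraries, and near 0 for Pcolce2.

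Within a nucleus the counts were low, and no oligodendrocyte nucleus held more than 10 UMIs of any of these genes. At least 2 UMIs of Col23a1 were found in 1 and 2 WT nuclei and in 72 and 83 TRα1+m nuclei. At least 2 UMIs of Fbn2 were found in 34 and 44 WT nuclei and in 159 and 137 TRα1+m nuclei. For Pcolce2 the numbers were 23 and 56 WT nuclei against 0 and 1 TRα1+m nuclei, where 0 of 1685 nuclei allows a share of up to 0.178%.

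Col23a1 and Fbn2 UMIs were not confined to separate TRα1+m nuclei. Both were detected in 104 nuclei of TRα1+m repeat 1, against 87.4 from the product of their shares, and in 106 nuclei of TRα1+m repeat 2, against 91.0. In nuclei thinned to equal depth the numbers were 46 against 36.8 and 36 against 31.6. Fbn2 and Pcolce2 were both detected in 15 and 34 WT nuclei, against products of 17.8 and 36.1. At least 1 of Col23a1 and Fbn2 was detected in 40.0% and 43.7% of TRα1+m nuclei, against 10.8% and 13.9% of WT nuclei. These counts are a description of sparse data.

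Markers of maturity were counted in the nuclei with and without a member, as a description of few nuclei with no test. After thinning, Mog, a protein of the outer myelin surface, was counted beside Col23a1 in TRα1+m. It was detected in 40.2% of nuclei with Col23a1 and 37.5% of those without in repeat 1, and in 63.5% and 61.9% in repeat 2. Mag, of the same marker list, was detected in 44.1% against 42.6% and in 68.5% against 73.3%. For Fbn2 in TRα1+m, Mog was detected in 37.5% against 37.9% and in 62.8% against 61.9%. In WT it was detected in 48.5% against 46.6% and in 70.2% against 60.6%. Mag was detected less often in nuclei with Fbn2 in every library. Its shares were 43.3% against 45.6% and 58.5% against 69.6% in WT, and 41.4% against 43.1% and 69.2% against 73.4% in TRα1+m. For Pcolce2 in WT, Mog was detected in 48.2% against 46.6% and in 63.3% against 61.0%. The precursor marker Pdgfra was found in 3 of 204 and 3 of 181 TRα1+m nuclei with Col23a1 (1.47% and 1.66%), against 1.69% and 1.30% of those without. Cspg4, another precursor marker, was found in 3 and 4 of the same nuclei (1.47% and 2.21%), against 0.473% and 0.568% of those without. Enpp6, a marker of newly formed oligodendrocytes, was found in 1 of 97 and 3 of 94 WT nuclei with Fbn2 (1.03% and 3.19%), against 5.83% and 9.14% of those without, and in 4.61% and 8.50% of TRα1+m nuclei with Fbn2, against 8.18% and 13.7%. Itpr2, of the same marker list, was found in 1 and 2 of the WT nuclei (1.03% and 2.13%), against 1.49% and 1.54%, and in 0.658% and 1.62% of the TRα1+m nuclei, against 1.88% and 1.89%. Beside Col23a1, Enpp6 was found in 2.94% against 8.17% of nuclei in TRα1+m repeat 1 and in 13.3% against 12.7% in repeat 2, and Itpr2 in 0.490% against 1.82% and 0.552% against 2.03%.

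Of 10 marker lists, for the oligodendrocyte lineage and for other cell types, 0 separated the genotypes across the 4 oligodendrocyte libraries. The astrocyte list (5 genes) summed to 809 and 649 CPM in WT and 1095 and 595 CPM in TRα1+m, and the OPC list (5 genes) to 116 and 179 CPM against 125 and 159 CPM. The list of newly formed oligodendrocytes (6 genes) summed to 665 and 725 CPM in WT and 541 and 671 CPM in TRα1+m. The newly formed list was thus lower in TRα1+m within each repeat, while its members differed: Bcas1 was at 468 and 511 CPM in WT and 306 and 391 CPM in TRα1+m, Enpp6 at 81.4 and 127 CPM against 103 and 188 CPM, and Bmp4 and Casr at 0 to 1.19 CPM in every library. Within each repeat the microglia list (128 and 87.3 CPM in WT, 169 and 88.3 CPM in TRα1+m) was higher in TRα1+m and the fibroblast list (23.9 and 8.48 CPM against 20.3 and 7.13 CPM) lower. The part of these lists in the values of the members was not tested. When oligodendrocyte nuclei with UMIs of at least 2 endothelial, mural, fibroblast, microglial or OPC markers were left out, between 108 and 206 nuclei per library, the log2 fold changes were 3.93 for Col23a1, 1.72 for Fbn2 and -4.89 for Pcolce2. Nuclei with astrocyte, tanycyte or neuron markers stayed in, so these values do not bear on RNA of those cell types. The tanycyte and ependymal list summed to 128 and 71.5 CPM in WT and 143 and 57.8 CPM in TRα1+m oligodendrocytes. The antisense gene Gm16126 was counted at 16 and 23 UMIs in WT and at 0 and 3 UMIs in TRα1+m oligodendrocytes. Its part in the Pcolce2 counts was not tested.

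Each gene had its own order over 17 cell types, taken as oligodendrocytes, oligodendrocyte precursor cells (OPCs), the microglia and macrophage cluster, astrocytes, tanycytes and 12 neuronal sub-clusters. Tanycytes are ependymal glia that line the third ventricle. The labels of the sub-clusters were checked against their defining genes. Hcrt, the orexin gene, was lower in the sub-cluster labelled Orexin+ (69.6 CPM) than in any of the other 13 sub-clusters, so that group is called by its label only. Rax, a tanycyte transcription factor, was highest in the tanycyte sub-cluster at 47.4 CPM. Foxj1, of the tanycyte and ependymal marker list, was also highest there, at 20.9 CPM. How far ependymal cells other than tanycytes make up this sub-cluster was not tested. The genes for MCH, POMC, AgRP, oxytocin and somatostatin were each highest in the sub-cluster labelled for them. Avp was lower in the neurons labelled AVasopressin than in those labelled Oxytocin+, AVP (3042 against 21430 CPM), and Cartpt in CART Neurons_1 (279 CPM) was the third highest, POMC/CART neurons holding 496 CPM. These names are used as labels only.

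Col23a1 was highest in the sub-cluster labelled tanycytes, at 1554 and 2380 CPM in WT and 1283 and 3094 CPM in TRα1+m. Every tanycyte library lay above every library of the other cell types, and 61.6% to 82.4% of thinned tanycyte nuclei held a Col23a1 UMI. The genotypes overlapped in tanycytes. The next places were taken by oligodendrocytes at 87.3 ± 88.0 CPM (SD, n = 4), which were set by the TRα1+m libraries, and by astrocytes at 67.3 ± 32.6 CPM, and no neighbours below tanycytes were separated. TRα1+m oligodendrocytes, at 158 and 169 CPM, lay well under tanycytes.

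Averaged over the 4 libraries, Fbn2 was highest in the oligodendrocyte lineage, with 171 ± 101 CPM in oligodendrocytes and 140.0 ± 23.1 CPM in OPCs (SD, n = 4). The ranges of these 2 cell types overlapped, and OPCs were separated from all neurons. Of the neurons, the POMC/CART sub-cluster held 90.5 ± 25.5 CPM and CART Neurons_1 held 68.7 ± 8.86 CPM, and every library of CART Neurons_1 lay above the next sub-cluster, labelled Oxytocin+, AVP, at 30.7 ± 17.6 CPM. Astrocytes held only 3.12 ± 0.709 CPM. WT oligodendrocytes, at 81.4 and 86.2 CPM, lay below the WT OPCs, at 116 and 125 CPM, and below the WT POMC/CART neurons, at 99.8 and 111 CPM, so the first place of oligodendrocytes came from the TRα1+m libraries. The TRα1+m oligodendrocytes, at 264 and 251 CPM, lay above the TRα1+m OPCs, at 163 and 156 CPM.

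Fbn1, the other fibrillin, had a different place in the lineage. It was highest in OPCs at 61.2 ± 11.9 CPM (SD, n = 4), separated from the next cell type, Glutamatergic Neurons_3, at 40.6 ± 2.50 CPM. It was lowest in oligodendrocytes at 3.01 ± 1.51 CPM. The 2 fibrillin genes were thus both counted in OPCs, and only Fbn2 passed the filter on low counts in oligodendrocytes.

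Pcolce2 was highest in oligodendrocytes when all libraries were averaged, at 55.8 ± 63.7 CPM (SD, n = 4), but only through the WT libraries. It was spread over neurons, with means of 12.7 to 37.1 CPM in every neuronal sub-cluster other than that labelled Orexin+ (4.67 CPM), Glutamatergic Neurons_2 being the highest at 37.1 ± 6.93 CPM. TRα1+m oligodendrocytes, at 2.96 and 3.96 CPM, were in the range of the microglia and macrophage cluster. That cluster held 0 to 8.16 CPM over both genotypes, from 11 UMIs in all.

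Pcolce was counted at 30.9 ± 9.49 CPM in the microglia and macrophage cluster (SD, n = 4), separated from the MCH-labelled neurons at 5.22 ± 3.32 CPM. It was at 0 UMIs in every library of 3 neuronal sub-clusters. Of the 87 Pcolce UMIs of the microglia and macrophage cluster, 79 (90.8%) were in the 294 nuclei (16.5%) with UMIs of at least 2 endothelial, mural or fibroblast markers. In those nuclei Pcolce reached 140 CPM, and in the remaining nuclei of the cluster it was 3.46 CPM. In the MCH-labelled sub-cluster 30 of 34 Pcolce UMIs were in such nuclei, which made up 24.0% of it. The other genes were less concentrated there. In the microglia and macrophage cluster such nuclei held 36 of 58 Fbn1 UMIs, 83 of 185 Col23a1 UMIs and 26 of 54 Fbn2 UMIs. Levels in them were still above those of the remaining nuclei, at 63.6 against 9.51 CPM for Fbn1. Col23a1 was at 147 against 44.1 CPM and Fbn2 at 45.9 against 12.1 CPM. In oligodendrocytes such nuclei held 6 of 913 Col23a1 UMIs, 9 of 1794 Fbn2 UMIs and 6 of 595 Pcolce2 UMIs. This split was made after the values were seen and carries no test.

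**Figure D3:**
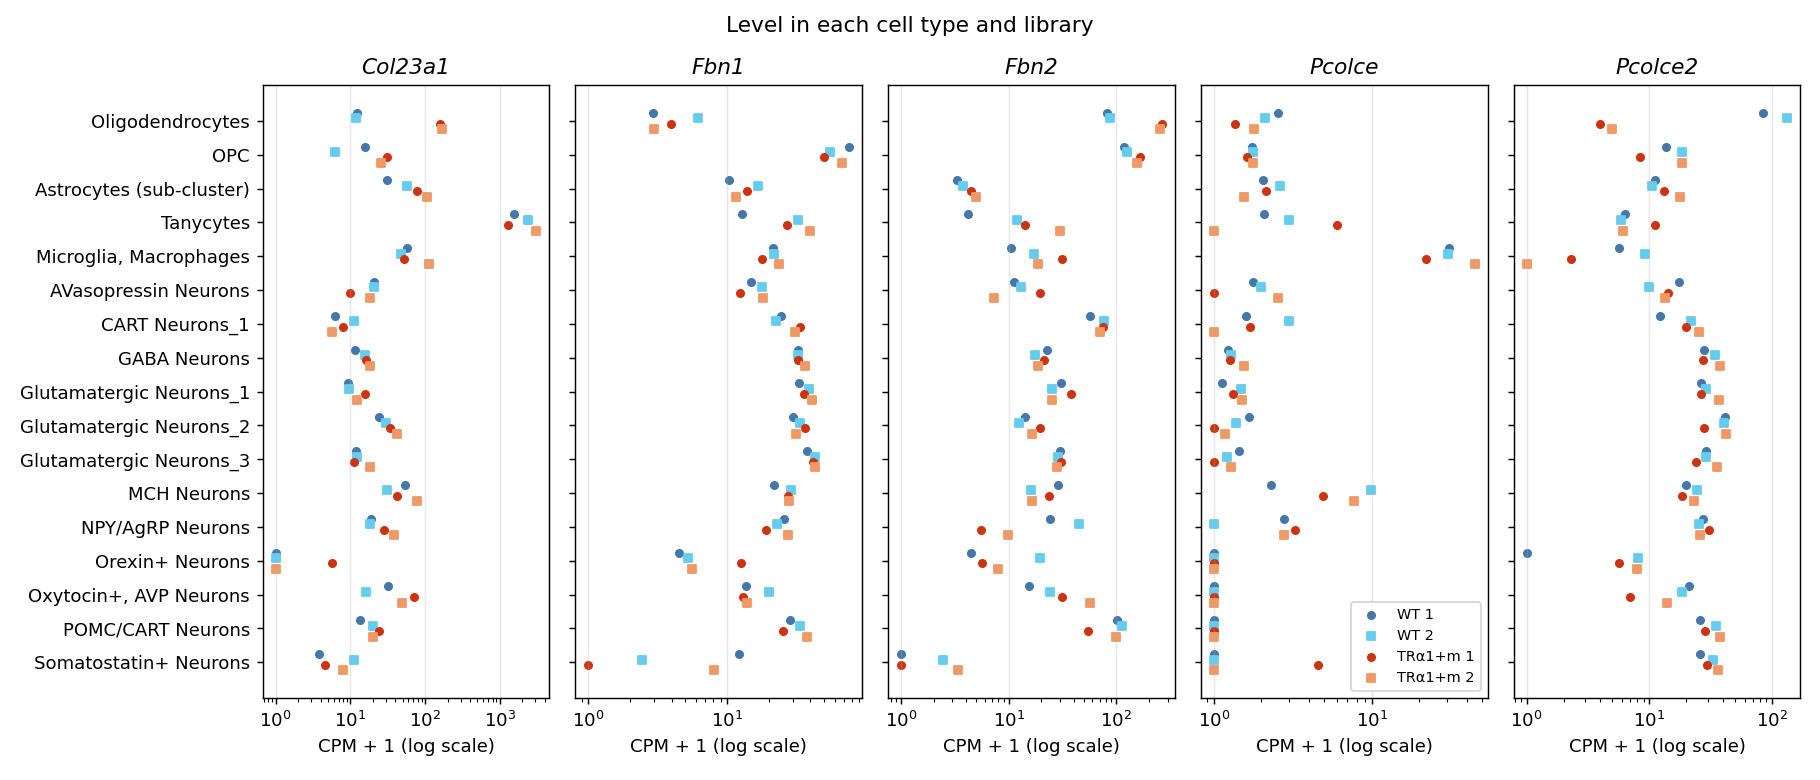
Level of each gene (CPM + 1, log axis that differs between panels) in 17 cell types, with 1 point per library, circles for repeat 1 and squares for repeat 2. Col23a1 peaks in tanycytes, Fbn1 in OPCs, Fbn2 in oligodendrocytes and OPCs and Pcolce in the microglia and macrophage cluster, and the genotypes stand far apart for Col23a1, Fbn2 and Pcolce2 in the oligodendrocyte row and for Fbn2 in the NPY/AgRP row.

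Outside oligodendrocytes, the genotype contrast was not the one that chose the genes, and it was tested. In OPCs, astrocytes, the microglia and macrophage cluster and Neurons_1, 17 tests of the 5 genes could be made, and 0 passed an adjusted p of 0.05 (edgeR quasi-likelihood test, Benjamini-Hochberg adjustment over all genes of the cell type). In these main clusters, here and below, astrocytes include the tanycytes unless stated otherwise. The smallest adjusted p was 0.9997, and DESeq2 called 0. At an unadjusted p under 0.05 there was 1 of the 17, where 1.64%, 1.72%, 2.16% and 0.969% of all genes were, in the order given. The background was 0% of genes called in each of these clusters by this fit, which had 2 libraries per genotype and left the repeat out of the model. In 14 sub-clusters, 0 of 47 tests passed, against 0.0031% of all gene tests there, and the smallest adjusted p was 0.721. An unadjusted p under 0.05 was found in 3 of the 47. They were Fbn2 in NPY/AgRP neurons, where it passed the filter on low counts through WT only, and Col23a1 in the astrocyte sub-cluster and in that labelled Oxytocin+, AVP. In these sub-clusters 288 of 8380, 312 of 14072 and 256 of 7889 genes had an unadjusted p under 0.05. With the repeat as a block, 1 of the 17 and 1 of the 47 passed, both of Col23a1. The block called 0.569%, 1.28%, 0.335% and 0.01% of all genes in the main clusters and 0.54% of all gene tests in the sub-clusters. It left 1 residual degree of freedom, so its p-values rest largely on the spread shared over all genes.

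Col23a1 had log2 fold changes above 0 in 4 of 4 main clusters, from 0.016 in the astrocyte cluster to 1.41 in OPCs. They were above 0 in 10 of 12 sub-clusters where it could be tested. The sub-clusters are parts of the main clusters and share their libraries, so these are not separate observations. How often other genes have such a tally was not counted. In OPCs Col23a1 was counted at 20 and 7 UMIs in WT (14.8 and 5.30 CPM) and at 49 and 33 UMIs in TRα1+m (30.3 and 25.1 CPM). The genotypes did not overlap, as for 27.3% of genes in OPCs, and the log2 fold change was 1.41 (SE 0.466, edgeR adjusted p = 0.99997). It was 2.38 without WT repeat 1 and 0.83 without WT repeat 2. With the repeat as a block the edgeR adjusted p was 0.00625, where 0.569% of genes were called. At equal depth 0.474% to 1.47% of OPC nuclei held a Col23a1 UMI, beside 1.13% to 1.70% in Neurons_1. Beside this, the list of newly formed oligodendrocytes, the only list of 10 to separate the genotypes in OPCs, summed to 1152 and 897 CPM in WT and 1236 and 1319 CPM in TRα1+m. The mature oligodendrocyte list, whose genotypes overlapped, summed to 1419 and 1507 CPM in WT OPCs and 1408 and 1855 CPM in TRα1+m OPCs. In oligodendrocytes it summed to 9245 to 22756 CPM. The part of either list, or of oligodendrocyte RNA, in the Col23a1 value of OPCs was not tested.

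In astrocytes without tanycytes, Col23a1 gave 29.7 and 55.6 CPM in WT and 77.7 and 106 CPM in TRα1+m. TRα1+m was 2.62 times WT within repeat 1 and 1.92 times WT within repeat 2, and repeat 2 was higher than repeat 1 in each genotype. The log2 fold change was 1.12 (SE 0.311, edgeR adjusted p = 0.9998), and with the repeat as a block the edgeR adjusted p was 1.15e-12, where 1.74% of genes were called. The genotypes did not overlap for 25.6% of the genes tested. The tanycyte and ependymal list in the same nuclei summed to 112 and 80.1 CPM in WT and 129 and 59.9 CPM in TRα1+m and did not separate the genotypes. The fibroblast list did, at 33.3 and 31.3 CPM against 51.9 and 46.2 CPM, and its part was not tested. In the whole astrocyte cluster, which includes the tanycytes, Col23a1 was at 411 CPM in both genotypes.

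Col23a1 was also above WT without overlap in Neurons_1, at 13.1 and 15.9 CPM against 18.8 and 21.5 CPM, where 23.0% of genes did not overlap. The microglia and macrophage list, the only list of 10 to separate the genotypes in Neurons_1, was at 61.0 and 61.3 CPM in WT and 73.3 and 64.6 CPM in TRα1+m, and its part was not tested. Of the 10 tests of Col23a1 in neuronal sub-clusters, 8 log2 fold changes were above 0, and in 5 sub-clusters both TRα1+m libraries were above both WT libraries, as was so for 16.2% of all gene tests in neuronal sub-clusters. The largest, in the sub-cluster labelled Oxytocin+, AVP, was 1.34, from 30.9 and 15.4 CPM in WT and 70.4 and 48.8 CPM in TRα1+m (edgeR adjusted p = 0.9999), where 30.5% of genes did not overlap. In that sub-cluster 5 of 10 marker lists also separated the genotypes, among them the tanycyte and ependymal list at 118 and 98.4 CPM against 238 and 137 CPM, and their part was not tested. In the neurons labelled AVasopressin, Col23a1 was lower without overlap, at 19.4 and 20.0 CPM in WT and 8.78 and 17.1 CPM in TRα1+m, where 27.5% of genes did not overlap, and the log2 fold change of -0.72 was -0.26 without TRα1+m repeat 1. None of these neuronal tests of Col23a1 passed, with or without the block.

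Fbn2 in OPCs was at 116 and 125 CPM in WT and at 163 and 156 CPM in TRα1+m. The direction was that of oligodendrocytes and the groups did not overlap, as for 27.3% of genes in OPCs. The log2 fold change of 0.37 (SE 0.178, edgeR adjusted p = 0.99997) did not pass the test with or without the block. The part of oligodendrocyte RNA in these OPC values was not tested. Fbn2 was also above WT without overlap in the astrocyte cluster, tanycytes included, at 2.50 and 4.31 CPM against 5.25 and 7.28 CPM. The same held in the microglia and macrophage cluster, at 9.40 and 16.3 CPM against 30.0 and 17.8 CPM. These rest on 6 to 31 UMIs per library, did not pass the test with or without the block, and stand beside 23.8% and 27.2% of genes without overlap. Astrocytes without tanycytes held 2.32 and 2.78 CPM of Fbn2 in WT and 3.46 and 3.92 CPM in TRα1+m. The log2 fold change there was 0.52 (edgeR adjusted p = 0.9998), where 25.6% of genes did not overlap. In the microglia and macrophage cluster 3 of 10 lists separated the genotypes, the endothelial list being higher in TRα1+m (61.1 and 58.3 against 84.8 and 84.3 CPM) and the oligodendrocyte and OPC lists lower (1720 and 2024 against 1695 and 1647 CPM, and 180.1 and 189 against 112 and 164 CPM). In the astrocyte cluster the fibroblast list was higher (32.7 and 31.7 against 47.8 and 39.7 CPM). The part of these lists was not tested. In tanycytes, which are part of the astrocyte cluster, Fbn2 was at 3.22 and 10.8 CPM in WT and 13.0 and 28.7 CPM in TRα1+m, from 3 to 17 UMIs. The log2 fold change was 1.48 (0.90 to 2.55 without each library in turn, edgeR adjusted p = 0.99997), where 25.8% of genes did not overlap.

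In neuronal sub-clusters 5 of the 10 log2 fold changes of Fbn2 were above 0 and 5 below, and the genotypes did not overlap in 4. In 2 of these TRα1+m was higher, as was so for 16.2% of all gene tests in neuronal sub-clusters, and in 2 it was lower. Fbn2 was higher in the neurons labelled Oxytocin+, AVP, at 14.5 and 23.1 CPM in WT and 30.0 and 55.3 CPM in TRα1+m (log2 fold change 1.03, 0.62 to 1.48 without each library in turn, edgeR adjusted p = 0.9999), where 30.5% of genes did not overlap and 5 of 10 lists separated the genotypes. It was also higher in Glutamatergic Neurons_2, at 13.2 and 11.6 CPM against 18.7 and 15.3 CPM (0.41, edgeR adjusted p = 0.99997), where 24.7% of genes did not overlap and the microglia list was at 45.8 and 41.7 against 67.5 and 52.7 CPM. In the NPY/AgRP neurons, which drive feeding, Fbn2 was lower, with 23.0 and 43.8 CPM in WT and 4.54 and 8.81 CPM in TRα1+m. These levels rest on 13, 38, 2 and 5 UMIs, and Fbn2 passed the filter on low counts there through the WT libraries only. Its difference and p-values in these neurons are therefore a description and not separate support. The log2 fold change was -2.31 (SE 0.578, edgeR adjusted p = 0.721), where 0.0119% of genes were called. With the repeat as a block the edgeR adjusted p was 0.0505, where 0.251% of genes were called. The genotypes did not overlap for 29.2% of the genes tested there. The microglia and endothelial lists were the 2 of 10 that separated the genotypes in these nuclei, at 53.1 and 57.6 against 70.4 and 58.2 CPM and at 19.5 and 23.0 against 29.5 and 28.2 CPM, and their part was not tested. In the POMC/CART neurons, which curb feeding, Fbn2 was at 99.8 and 111 CPM in WT and at 53.4 and 97.6 CPM in TRα1+m, with a log2 fold change of -0.51 (SE 0.284, edgeR adjusted p = 0.9999), which was -0.17 without TRα1+m repeat 1 and -0.99 without TRα1+m repeat 2. There 27.6% of genes did not overlap, and the OPC and fibroblast lists, at 41.6 and 44.9 against 39.0 and 29.2 CPM and at 6.93 and 6.41 against 5.78 and 6.34 CPM, were the 2 of 10 that separated the genotypes.

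Pcolce2 was called by genotype in none of the cell types where it could be tested outside oligodendrocytes, with or without the block, and whether its difference varied between cell types was not tested. In Neurons_1 it was at 26.7 and 31.0 CPM in WT and 24.3 and 34.9 CPM in TRα1+m, and the difference followed the repeat rather than the genotype. In the astrocyte cluster it was at 9.15 and 8.62 CPM in WT and 11.8 and 15.0 CPM in TRα1+m, with a log2 fold change of 0.60 (SE 0.272, edgeR adjusted p = 0.9997). In OPCs, the precursors of oligodendrocytes, it was at 12.6 and 17.4 CPM in WT and 7.43 and 17.5 CPM in TRα1+m. The genotypes overlapped there. In the microglia and macrophage cluster Pcolce2 was lower without overlap, at means of 6.43 CPM in WT and 0.652 CPM in TRα1+m, from 11 UMIs. It was also lower without overlap in the neurons labelled Oxytocin+, AVP. The levels there were 20.0 and 17.4 CPM in WT and 5.99 and 13.0 CPM in TRα1+m, from 28 UMIs. Neither passed the filter, and 27.2% and 30.5% of the genes tested there did not overlap. Fbn1 had log2 fold changes of -0.23 to 0.07 in the 4 clusters, and Pcolce had -0.09 and 0.10 in the 2 clusters where it could be tested.

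**Figure D4:**
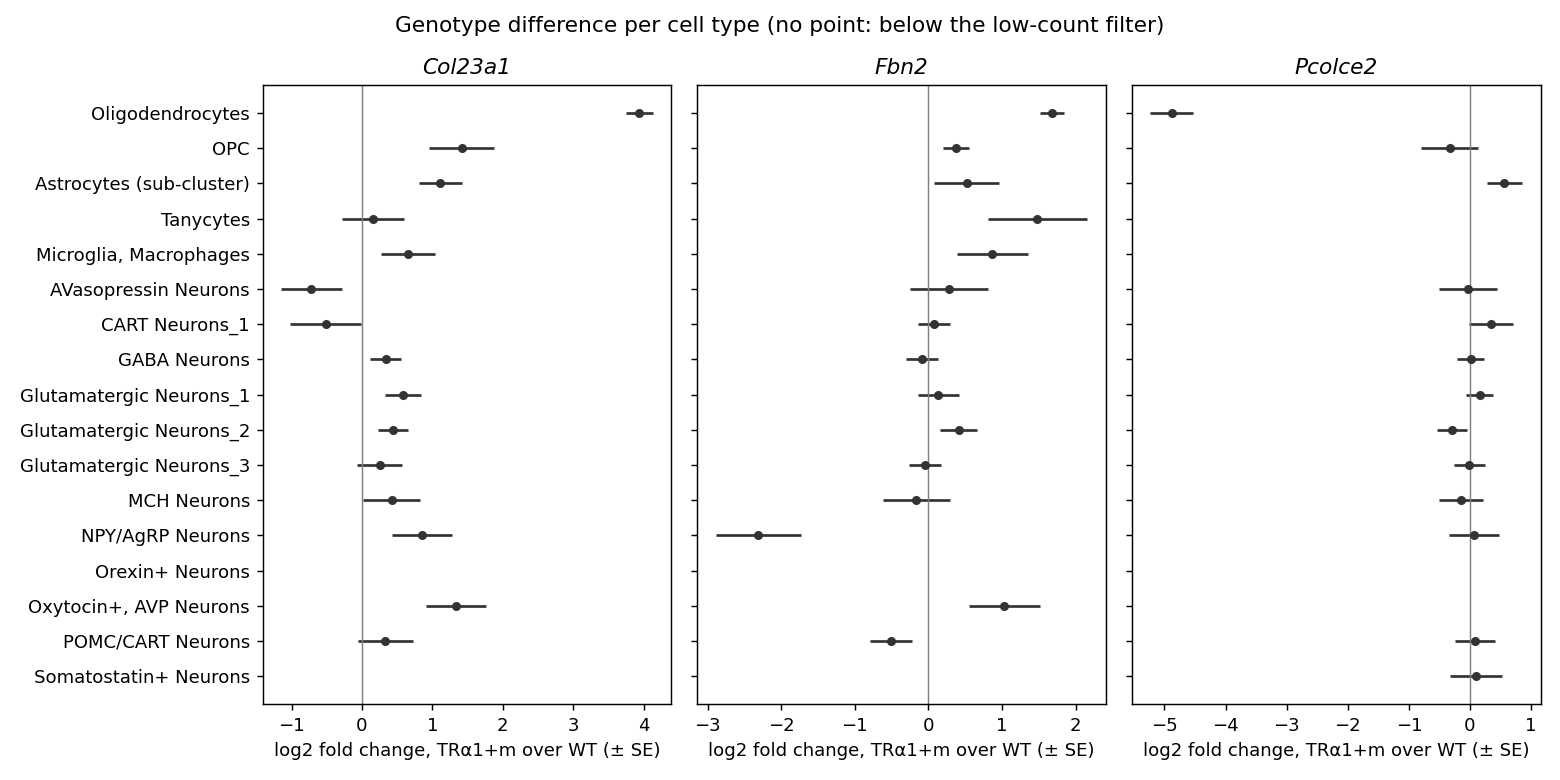
Fitted log2 fold change (TRα1+m over WT) for Col23a1, Fbn2 and Pcolce2 in each cell type, on axes that differ between panels. Bars are the standard error derived from the quasi-likelihood F statistic. The oligodendrocyte values of 3.94, 1.69 and -4.88 chose the genes, so their distance from the rest is a description and carries no test. Fbn2 reaches -2.31 in NPY/AgRP neurons, where it passed the filter on low counts through WT only, and 1.48 in tanycytes. Among the values tested, which are those outside oligodendrocytes, none passed the adjusted test without the block.

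The repeats differed for some of the same genes. Col23a1 in the astrocyte cluster was higher in repeat 2 than in repeat 1 by a log2 fold change of 0.67 (SE 0.114, edgeR adjusted p = 3.17e-06), where 20.6% of genes were called. In OPCs and in the microglia and macrophage cluster 0 of the members tested were called between the repeats by edgeR or DESeq2 (2 and 0 at an unadjusted p under 0.05), where 11.4% and 6.27% of genes were called. Pcolce2 was higher in repeat 2 in oligodendrocytes, by 0.59 (SE 0.210, edgeR adjusted p = 0.0476, 12.4% of genes called), and in Neurons_1, by 0.33 (SE 0.104, edgeR adjusted p = 0.0469, 25.2% of genes called). Neither Pcolce2 call held with RLE size factors (edgeR adjusted p = 0.0671 and 0.0515) or with DESeq2 (0.761 and 0.166). The genotype values in oligodendrocytes were alike in the repeats. They are the values that chose the genes, so this is a description and not separate support. WT was 28.3 times TRα1+m for Pcolce2 within repeat 1 and 33.5 times within repeat 2, TRα1+m was 14.1 and 15.3 times WT for Col23a1, and it was 3.25 and 2.91 times WT for Fbn2.

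None of the further genes of the matrix pathway passed the test in oligodendrocytes. The lists held 128 further genes, of which 127 were measured and 52 passed the filter in oligodendrocytes, and 0 of the 52 had an adjusted p under 0.05 (edgeR quasi-likelihood test), against 0.103% of all genes. At an unadjusted p under 0.05 there were 8 of the 52, where 5.32% of all genes were, and DESeq2 called 1, Adamtsl4, where it called 0.594% of all genes. Some of the 8, such as Col5a3 and Col11a2, passed the filter through 1 genotype only. The median log2 fold change was 0.08 over the 52 genes and 0.01 over all genes tested. Col25a1 and Vcan are in these lists and also in the marker lists of tanycytes and OPCs. With the repeat as a block, 7 of the 52 genes were called higher and 4 lower in TRα1+m, where 4.35% of all genes were called. In OPCs, astrocytes, the microglia and macrophage cluster and Neurons_1, 0 of 63, 90, 58 and 121 list genes were called (5, 5, 4 and 6 at an unadjusted p under 0.05, where 1.64%, 1.72%, 2.16% and 0.969% of all genes were, and 0 with DESeq2), where 0% of all genes were called, and the block called 2, 7, 1 and 0, where it called 0.569%, 1.28%, 0.335% and 0.01% of all genes.

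Of the fibrillar collagens, the substrates on which the enhancers act, 11 were measured. In oligodendrocytes 5 passed the filter, at means of 4.06 to 8.36 CPM, with a median log2 fold change of 1.01. An unadjusted edgeR p under 0.05 was found for 3 of the 5, where 5.32% of all genes had one. With the block 2 were called higher and 1 lower, where 4.35% of all genes were called. Genes this low could pass the filter through 1 genotype only. Col5a3, at 2.70 and 1.84 CPM in WT and 7.02 and 9.50 CPM in TRα1+m, passed through TRα1+m. Col11a2, at 7.33 and 12.9 CPM in WT and 2.59 and 3.17 CPM in TRα1+m, passed through WT. The median and counts of this list are therefore shaped by the filter and are a description. Of the fibril-associated and other collagens 3 of 20 passed the filter, with a median log2 fold change of 1.22. An unadjusted edgeR p under 0.05 was found for 2 of these 3, and the block called 3 higher. Among them, Col9a1 was at 10.8 and 7.74 CPM in WT and 20.3 and 41.2 CPM in TRα1+m (log2 fold change 1.79, edgeR adjusted p = 0.346, with the block 3.60e-06). Col9a3, another chain of collagen IX, was at 13.9 and 30.6 CPM in WT and 24.0 and 64.5 CPM in TRα1+m (1.06, edgeR adjusted p = 0.999, with the block 0.000237). Its genotypes overlapped, and it was higher in TRα1+m within each repeat. Of 6 other membrane-spanning collagens and collagen-like genes, the group of Col23a1, 3 passed the filter (Col25a1, Colec12 and Eda), with a median log2 fold change of -0.24, and 0 were called by either fit.

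Among the 11 microfibril partners tested, Adamtsl4 had the largest difference. It encodes a secreted protein that binds fibrillin-1, and it was at 27.4 and 54.2 CPM in WT and 5.91 and 9.50 CPM in TRα1+m. The genotypes did not overlap, and the log2 fold change was -2.33 (SE 0.424, edgeR adjusted p = 0.209, with the block 3.18e-11). Efemp1, or fibulin-3, was at 53.6 and 81.8 CPM against 78.3 and 111 CPM (0.55, with the block edgeR adjusted p = 0.0215). Bmp1, a proteinase whose activity the enhancers raise, was at 31.6 and 32.8 CPM in WT and 37.3 and 40.4 CPM in TRα1+m (0.34, edgeR adjusted p = 0.999, with the block 0.507).

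Of the receptors, the integrin chain Itgav had a log2 fold change of -0.58 (with the block edgeR adjusted p = 0.00912) and Itgb1 one of 0.51 (with the block 0.0461), while the collagen receptor Ddr1, at a mean of 240 CPM, had 0.26 and was not called by either fit. Hapln2, a link protein of the matrix around the nodes of Ranvier, was at 223 and 267 CPM in WT and 101 and 161 CPM in TRα1+m (-0.83, edgeR adjusted p = 0.633, with the block 3.11e-05). Plod1, a lysyl hydroxylase of collagen, had -0.41 and was not called by either fit. The remaining calls with the block in oligodendrocytes were Col5a3, Col27a1 and Col16a1, higher in TRα1+m, and Col11a2, lower, at means of 5.27 to 19.4 CPM. In the other clusters the block called Col11a2 and Vcan in OPCs, Colec12, Col1a2, Col5a2, Col16a1, Fbln1, Efemp1 and Ppib in astrocytes and Mfap4 in the microglia and macrophage cluster.

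**Figure D5:**
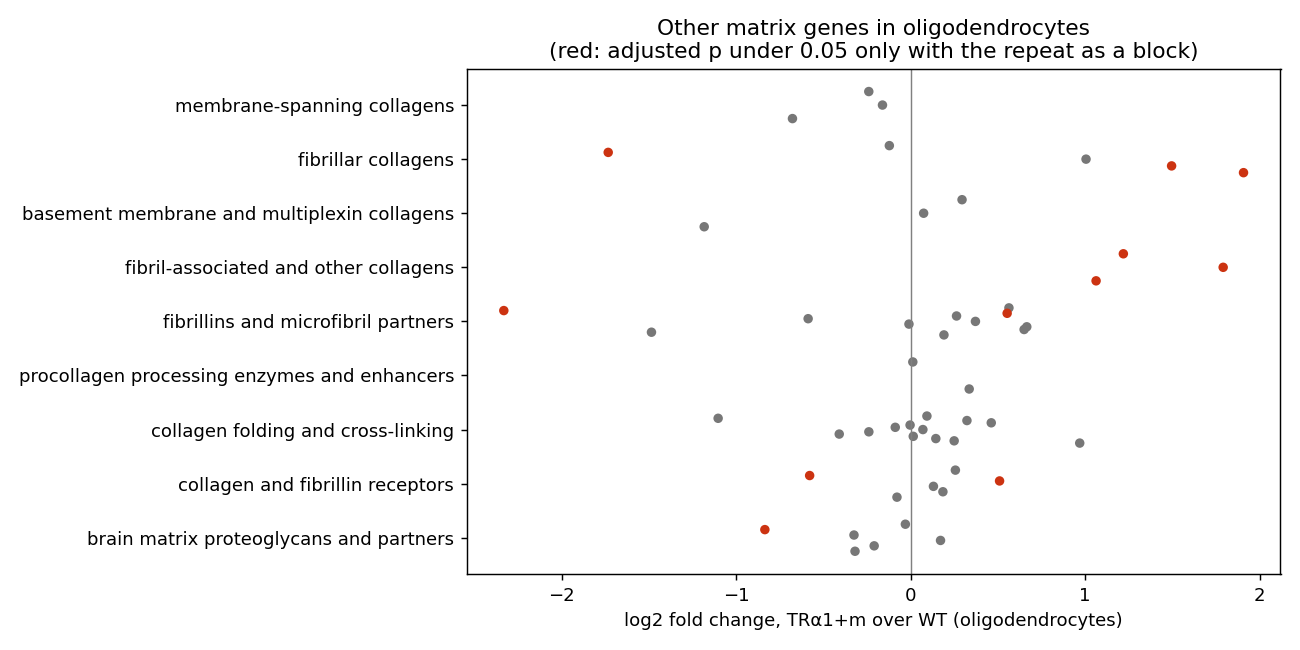
Log2 fold change (TRα1+m over WT) in oligodendrocytes of the 52 further matrix genes that passed the filter, 1 point per gene, grouped by list, with genes called only when the repeat was a block in red. The points spread on both sides of 0 in most lists, Adamtsl4 at -2.33 being the lowest.

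The genes whose levels over the 17 cell types were most like those of each member were taken by Pearson's r of log2(mean CPM + 1) among 14055 genes, as a description, since the cell types share libraries. For Col23a1 they were Cfap126 (r = 0.957), Spata24, Calml4, Tmem245 and Mlf1, all highest in tanycytes. For Fbn1 they were Adamts10 (r = 0.862), a proteinase that binds fibrillin-1, Tmem9, Ccdc107, Gm48957 and St8sia1. For Fbn2 they were Il1rap (r = 0.889), Agap1, Vldlr, Cercam and Qpct, which were highest in oligodendrocytes or OPCs. For Pcolce they were Lyz2 (r = 0.966), Ly86, Tent5c, Inpp5d and Gm44752, all highest in the microglia and macrophage cluster. Within that cluster 79 of 87 Pcolce UMIs were in nuclei with at least 2 endothelial, mural or fibroblast markers, which cluster means do not set apart. For Pcolce2 they were Gm27153 (r = 0.871), the potassium channel gene Kcnq3, Shcbp1l, 9330175M20Rik and 4933400F21Rik.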

How the data were processed

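Single nuclei of snap-frozen hypothalamus were measured in 4 libraries, 2 per genotype, each a pool of 3 mice. The authors aligned the reads to the mm10 reference (GRCm38) with Cell Ranger 5.0.1, introns included, and deposited unnormalized UMI counts per gene and nucleus with a table of their quality filters, doublet removal and cluster names, which were used as given, keeping 56386 of 68190 barcodes. A pool of mice is the replicate. The p-values rest on the spread between pools, moderated in the fit by the spread shared over all genes. With the repeat as a block they rest largely on this shared spread and little on that of the gene itself.

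Counts were summed per library and cell type, for cell types with at least 10 nuclei in every library, and tested across all genes with edgeR 4.0.16 in R 4.3.3 (filterByExpr, TMM, robust quasi-likelihood F-test, Benjamini-Hochberg adjustment, threshold 0.05), with genotype as the main term and 2 residual degrees of freedom. The fit with the repeat as a block had 1. The filter asks for enough counts in as many libraries as 1 genotype has, so a gene could pass through its higher genotype only. The repeats pair the libraries, since each was performed with both genotypes, and the differences between the repeats correlated between the genotypes (r = 0.393 to 0.668 across genes in 5 clusters). DESeq2 1.42.0, RLE size factors, no filter, the bias-adjusted fit, equal numbers of nuclei and leaving out each library were alternatives. Thinning drew 900 UMIs per nucleus (seed 20240501). The scripts were tested on simulated data.

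The 5 genes, the matrix and marker lists and the tests were chosen with earlier results of these data known. Named genes were the 5 members, list genes with an adjusted p under 0.05 in a main cluster, the 10 other list genes with the largest log2 fold change in oligodendrocytes at a mean of at least 20 CPM, and the 5 genes most like each member. Other genes named, including those called only with the block and Gm16126, were chosen after their values were seen. Promoters were available for 4 of the 5 genes. Intervals and the limit of 3 counts for a count of 0 cover counting error only.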

Additional observations from a re-analysis of the deposited data

Results flagged for a closer look

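Col23a1 in the neurons labelled AVasopressin went the opposite way to oligodendrocytes, with a log2 fold change of -0.72 and 19.4 and 20.0 CPM in WT against 8.78 and 17.1 CPM in TRα1+m. The value was -0.26 without TRα1+m repeat 1 and -1.16 without TRα1+m repeat 2, and the neuron and mural lists, 2 of 10, also separated the genotypes there (10389 and 10451 against 10570 and 12571 CPM, and 8.55 and 5.00 against 17.6 and 10.9 CPM). Fbn2 went the opposite way to oligodendrocytes in the NPY/AgRP neurons, at -2.31, and in the POMC/CART neurons, at -0.51. In the NPY/AgRP neurons it passed the filter on low counts through the WT libraries only. Pcolce2 went the opposite way in the astrocyte cluster, at 0.60, and in its astrocyte sub-cluster, at 0.56. In each case both TRα1+m libraries lay on one side of both WT libraries, as for 27.5%, 29.2%, 27.6%, 23.8% and 25.6% of the genes tested in these cell types, in the order given, and the difference from oligodendrocytes was not tested.

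The cluster of 207 non-neuronal nuclei, which the study set aside, had the directions of the oligodendrocytes and entered no test. The paper reports that these nuclei appeared to express marker genes of both astrocytes and oligodendrocytes and had higher doublet scores. It did not label them doublets and left them out from caution. The values are therefore not read as those of a further cell type, and the part of oligodendrocyte RNA in them was not tested. Col23a1 was at 49.0 and 40.9 CPM in WT and a mean of 108.8 CPM in TRα1+m, from 9, 6, 25 and 13 UMIs. Fbn2 was at 87.1 and 40.9 CPM in WT and a mean of 147.0 CPM in TRα1+m. Pcolce2 was counted at 7 and 9 UMIs in WT and 2 and 0 UMIs in TRα1+m.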

How the results depend on the processing

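With 2 pools per genotype and the repeat left out of the model, the main fit in most cell types called no gene. An adjusted p near 1 therefore does not show equal levels. Genes under about 10 UMIs per library, such as Pcolce in most cell types, could not be compared. Without each library in turn, the log2 fold changes in oligodendrocytes ran from 3.87 to 4.00 for Col23a1, from 1.66 to 1.71 for Fbn2 and from -5.15 to -4.54 for Pcolce2, and equal numbers of nuclei gave 3.86 for Col23a1. In percentage points, the genotype difference in nuclei with a UMI was 4.97 for Col23a1, 6.95 for Fbn2 and -2.67 for Pcolce2 with at least 2 UMIs, and 11.5 for Col23a1 and 11.4 for Fbn2 after thinning. All of these oligodendrocyte values come from the contrast that chose the genes and are not separate support.

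The replicate block raised the calls of members from 0 to 1 in OPCs and to 1 over the 14 sub-clusters, and those of matrix list genes from 0 to 11 in oligodendrocytes, 2 in OPCs, 7 in astrocytes and 1 in the microglia and macrophage cluster; it changed no other count of calls. Matrix list genes called in oligodendrocytes numbered 1 with DESeq2, 1 with no filter and 0 to 3 without each library (3 without TRα1+m repeat 1 and 1 without TRα1+m repeat 2). In OPCs they numbered 1 with no filter and 0 to 1 without each library, WT repeat 1 or TRα1+m repeat 2 giving the call. In the microglia and macrophage cluster they numbered 0 to 3, with 1 without TRα1+m repeat 1 and 3 without TRα1+m repeat 2. The calls of Pcolce2 between the repeats fell from 1 to 0 in oligodendrocytes with DESeq2, RLE, the bias-adjusted fit and no filter, and from 1 to 0 in Neurons_1 with DESeq2 and RLE. The causes were not tested.

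Small uncalled log2 fold changes turned sign without 1 library: Fbn1 ran from -0.48 to 0.072 in OPCs, -0.29 to 0.58 in astrocytes, -0.28 to 0.12 in the microglia and macrophage cluster and -0.00346 to 0.071 in Neurons_1. Pcolce2 ran from -1.01 to 0.16 in OPCs and -0.29 to 0.19 in Neurons_1, Fbn2 from -0.19 to 0.092 in Neurons_1, Pcolce from -0.49 to 0.55 and -0.49 to 0.49 in the microglia and macrophage cluster and Neurons_1, and Col23a1 from -0.43 to 0.35 in astrocytes and -0.00463 to 1.13 in the microglia and macrophage cluster. Col23a1 in astrocytes was -0.000189 with no filter and -0.00798 with the replicate block, Fbn1 in the microglia and macrophage cluster was 0.071 with equal nuclei, and Fbn2 between the repeats in oligodendrocytes was 0.0033 with no filter. Of the 5 genes most like each member, a pseudocount of 10 CPM kept 3 for Col23a1, Fbn1 and Pcolce, and a filter at 50 CPM kept 2 for Col23a1, 2 for Fbn1, 3 for Pcolce and 1 for Pcolce2.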
